A study of Mus musculus and Rattus norvegicus with 37 samples.

Results

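The genes described here are 9 transcription factors that define the hepatocyte, namely Hnf4a, Cebpa, Foxa1, Foxa2, Foxa3, Onecut1, Onecut2, Nr5a2 and Prox1. They were chosen by symbol from 47929 named genes in each mouse table and 28026 in each rat table, and all 9 were present and passed the minimum mean count of 10 in all 4 tables. The study sequenced polyadenylated liver RNA of 21 female C57BL/6J mice and 16 male Zucker rats. WT/Floxed mice received LNA29 (n = 8, of which 4 were WT and 4 floxed) or saline (n = 5, of which 3 were WT and 2 floxed), and mice labelled L-Sirt1 KO received LNA29 (n = 4) or saline (n = 4). LNA29 is a pair of locked nucleic acid inhibitors, 1 of miR-29a and 1 of miR-29b and miR-29c, given once under the skin at 20 mg/kg each, and the livers of fed mice were taken on day 7. The WT mice were 9 to 11 weeks old, whereas the floxed mice and the mice labelled L-Sirt1 KO were 15 to 20 weeks old, so the background and the age of the WT/Floxed mice cannot be told apart. The floxed mice carry the conditional Sirt1 allele without its deletion, and the L-Sirt1 KO label names a deletion in the liver only. Rats were lean (ZLR, n = 4) or obese Zucker fatty (fa/fa, ZFR, n = 4) at 5.5 months, or fatty rats of 3 months given BT2, an inhibitor of the branched-chain ketoacid dehydrogenase kinase (n = 4, 20 mg/kg a day into the peritoneum for 1 week), or its DMSO vehicle (n = 4).

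Hepatocyte identity is held by a small set of transcription factors that bind each other's genes and the same liver enhancers. Hnf4a is a nuclear receptor needed for most genes of the differentiated hepatocyte, and Cebpa is a leucine zipper factor of metabolic genes. The Foxa proteins are forkhead factors that open closed chromatin, Onecut1 (HNF6) and Onecut2 are cut-homeodomain paralogues that act in hepatocytes and bile duct cells, Nr5a2 (LRH-1) is a nuclear receptor of bile acid and cholesterol genes, and Prox1 is a homeobox factor of liver progenitors, hepatocytes and lymphatic endothelium.

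The LNA29 inhibitors are directed at 3 mature miRNAs that share 1 seed. They are shown because this seed, bases 2 to 8 in capitals, sets which transcripts can pair with the family. The sequences are from RefSeq (GRCm38.p6), and miR-29b-3p is given at its locus on chromosome 1.
mmu-miR-29a-3p: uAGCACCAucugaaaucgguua
mmu-miR-29b-3p: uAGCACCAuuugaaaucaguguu
mmu-miR-29c-3p: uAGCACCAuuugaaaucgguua
The complement of the seed, TGGTGCT, was searched on the transcript strand in the annotated 3′ UTRs of GENCODE M21 (GRCm38). It was found once in Hnf4a and once in Onecut2 and in none of the other 7 genes, so 2 of the 9 genes (22.2%) held it, where 18.8% of the 13533 tested genes with a 3′ UTR did. The Hnf4a match lies in the last exon within chr2:163570473-163570501 (plus strand), the window shown with the match in capitals and without the final A of an 8-base site.
Hnf4a: ctcttccttccTGGTGCTggtcagggggc
The Onecut2 match is also of 7 bases, and its sequence is not shown. The annotated 3′ UTR of Onecut2 is 14356 bases long and makes up most of the 16234 exonic bases of the gene, whereas that of Hnf4a is 2819 bases long. A match of letters is a description of the sequence and does not show that a site is used.

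Levels were compared between genes per kb of annotated exon, in normalized counts per kb. In saline-treated WT/Floxed mice Cebpa stood at 8455 ± 1778 (SD, n = 5) and Hnf4a at 6446 ± 698, and the libraries of these 2 genes overlapped. They were followed by Foxa2 at 921 ± 329, Foxa3 at 919 ± 256, Nr5a2 at 697 ± 83.6 and Prox1 at 658 ± 171, which also overlapped with their neighbours. Onecut2 at 294 ± 32.4, Foxa1 at 270.4 ± 19.98 and Onecut1 at 261 ± 153 were lowest and did not differ beyond their spread. Cebpa (chromosome 7, 35119293 to 35121928) and Hnf4a (chromosome 2, 163506808 to 163572910) thus stood far above the other 7 genes in every mouse group, and the lowest Hnf4a library (5152) was higher than the highest Foxa3 library (1886). Because Onecut2 has far more exonic sequence than Onecut1 (4113 bases), the ratio of their counts, a median of 4.92 in saline-treated WT/Floxed mice, is not a ratio of levels.

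**Figure D1:**
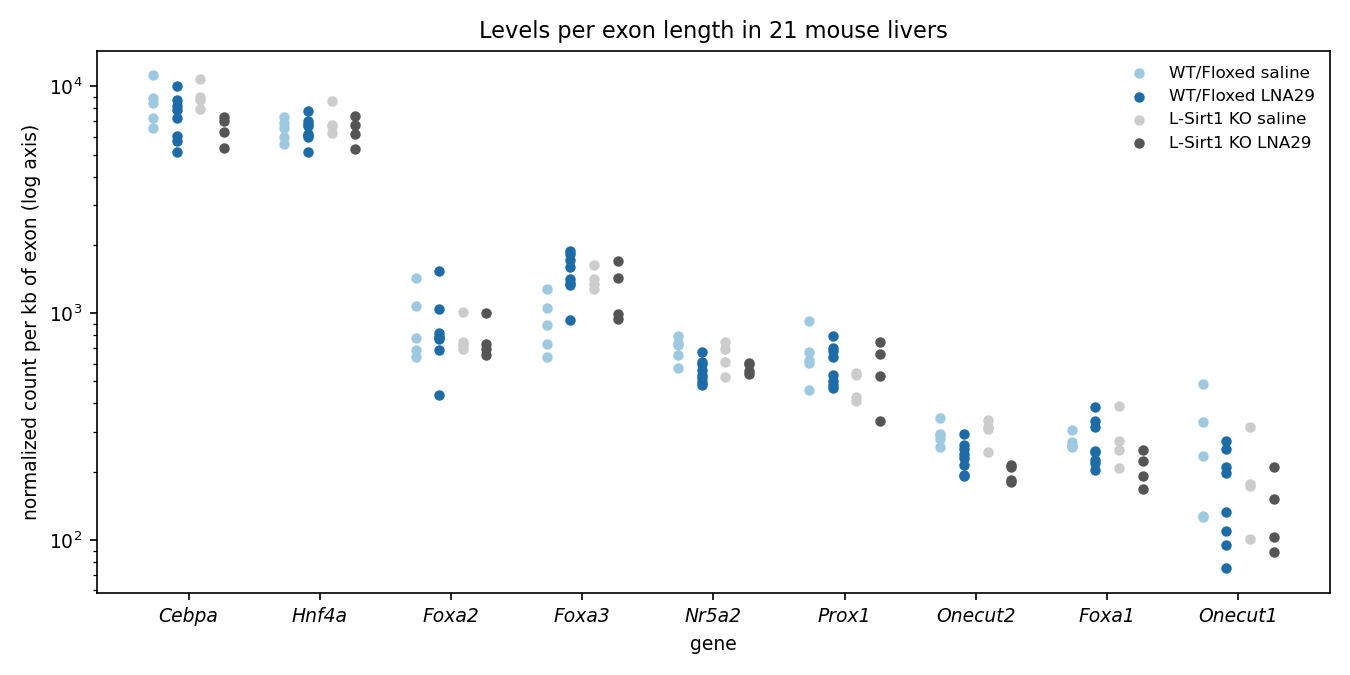
Normalized counts per kb of annotated exon (vertical log axis) of the 9 genes in 21 mouse livers, ordered by the mean of the saline-treated WT/Floxed mice. Each point is 1 library and colours mark the 4 groups. No library of Cebpa or Hnf4a lies below 5152 and Onecut1 shows the widest spread.

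The genes differed in how steady they were among mice of 1 group. Onecut1 was the most variable, with a coefficient of variation of 58.3% in saline-treated WT/Floxed mice, above 98.5% of the genes with a mean of at least 50, and it was also above at least 94.95% of genes in each of the other 3 mouse groups. Foxa2 varied by 35.8% among the saline-treated WT/Floxed mice. The WT/Floxed groups mix backgrounds and ages, so their variation can include differences between these. Foxa2 with saline was 1660 ± 166 (SD, n = 3) in WT and 2966 ± 578 (SD, n = 2) in floxed mice. Hnf4a varied by 10.8%, Onecut2 by 11.04% and Nr5a2 by 11.999%, below the median gene (15.2%), and over the other 3 mouse groups they ranged from 5.49% to 15.6%, on either side of the medians of 11.7% to 14.3%. Foxa1 varied by 7.39% in saline-treated WT/Floxed mice but by 17.1% to 27.9% in the other 3 groups, above the median gene. Onecut1 shares 2171 bases of exon on the same strand with the long noncoding gene Gm20649, which held 0 to 216 normalized counts in the WT/Floxed table, so the split of reads between the 2 entries is uncertain. Prox1 shares 133 exonic bases with the antisense gene Prox1os (317 to 456 normalized counts) and Cebpa shares 51 with the antisense gene Gm45091 (33 to 51.9), and the strand setting of the counting is not given in the sources used here.

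The first comparison asked how LNA29 changed the liver transcriptome of WT/Floxed mice. Foxa3 rose and Onecut2 and Nr5a2 fell, whereas the log2 fold change of Hnf4a was 0.00. These 3 of 9 genes passed the criteria (limma p under 0.05, adjusted p under 0.2, mean above 50 and fold above 1.2), where 4.35% of the 15811 genes tested did, 2.42% higher and 1.93% lower. The median log2 fold change of the 9 genes was -0.12, and that of all genes tested was 0.00. None of the 9 genes had groups that did not overlap, as 1.51% of all genes had.

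Foxa3, which lies on chromosome 7 from 19013284 to 19023538 and is the forkhead factor tied to glucose output in fasting, had the largest change. Its counts in saline-treated WT/Floxed mice were 2152, 1305, 2604, 1815 and 1484, and those of LNA29-treated mice ranged from 1899.6 to 3843 with a median of 3064. All but 1 of the LNA29-treated libraries were above every saline library, and the groups overlapped through that WT mouse. The rise was 0.73 on the log2 scale (SE 0.18, 1.65-fold, limma adjusted p = 0.0688, exact permutation p = 0.00699) and passed the criteria in all 13 fits that left out 1 mouse. The estimates of the 2 backgrounds were unlike, although their difference did not pass after adjustment. In floxed mice the counts were 2722 to 3843 with LNA29 (n = 4) and 1305 and 1484 with saline (n = 2). The rise there was 1.29 (limma adjusted p = 0.0326). With only 2 saline mice the separation of these groups says little, and its share over all genes was not counted. In WT mice the counts were 1899.6 to 3246 (n = 4) and 1815 to 2604 (n = 3), which overlapped. The difference there was 0.29 (limma adjusted p = 0.699). The difference between these 2 responses was 1.00 on the log2 scale (SE 0.27) and did not pass after adjustment over all genes (limma adjusted p = 0.525), as only 0.00632% of all genes did. Within the 3 sets of libraries whose names in the labels share a leading number and a flow cell code, called runs here, the log2 differences of Foxa3 were 0.53, 0.43 and 0.99.

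Onecut2 fell in WT/Floxed mice. Its counts with saline were 4549.9, 5625, 4724, 4196 and 4766, and with LNA29 they ranged from 3126 to 4781 with a median of 3824. The LNA29-treated libraries were mostly lower, and 2 of the 8 lay within the saline range. The log2 fold change was -0.33 (SE 0.11, limma adjusted p = 0.164, exact permutation p = 0.0155). It was -0.32 in WT mice alone and -0.38 in floxed mice alone, and -0.41, -0.15 and -0.51 within the 3 runs. Neither background alone passed the criteria (adjusted p = 0.435 and 0.322). Without saline replicate 2, the highest library, the adjusted p was 0.321, and 6 of the 13 fits that left out 1 mouse lost the call, namely those without saline replicates 1, 2, 3 and 5 or LNA29 replicates 7 and 8.

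Nr5a2, on chromosome 1 from 136842571 to 136960448, fell by a similar amount. Its counts were 4666, 3392, 4358, 3866 and 4279 with saline and 2849 to 3963 with a median of 3239 with LNA29. The LNA29-treated libraries were mostly lower, and saline replicates 2 and 4 lay within their range. The log2 fold change was -0.32 (SE 0.094, limma adjusted p = 0.132, exact permutation p = 0.0101), with -0.40 in WT and -0.20 in floxed mice. The call was lost in 6 of 13 fits without 1 mouse, those without saline replicates 1, 3 and 5 or LNA29 replicates 5, 7 and 8, with adjusted p-values of up to 0.288. With no minimum mean, where many more genes enter the adjustment, neither Onecut2 (adjusted p = 0.259) nor Nr5a2 (adjusted p = 0.214) passed.

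Hnf4a did not pass in either direction. Its counts were 35287, 26768, 33101, 31582 and 28881 with saline and 24872 to 37736 with a median of 30947 with LNA29. The groups lay over each other, and the 95% interval of the log2 difference was -0.20 to 0.20. The pooled value averages backgrounds of opposite sign. In floxed mice the counts were 28925 to 37736 with LNA29 (n = 4) and 26768 and 28881 with saline (n = 2). The nearest libraries of these groups were nearly equal, and the log2 difference was 0.22. In WT mice the counts were 24872 to 32804 (n = 4) and 31582 to 35287 (n = 3), with overlap and a difference of -0.17. Neither was past the criteria, and the difference between these responses, 0.39 (SE 0.17), did not pass after adjustment (limma adjusted p = 0.555). Onecut1 had counts of 525.96, 1359, 961, 521 and 2009 with saline and of 309 to 1121 with LNA29, and its log2 fold change of -0.58 was not past the test (95% interval -1.38 to 0.22, adjusted p = 0.567, and -0.30 without saline replicate 5). For Cebpa the log2 difference was -0.21 (adjusted p = 0.652), for Prox1 -0.12 (adjusted p = 0.817), for Foxa2 -0.12 (adjusted p = 0.898) and for Foxa1 -0.02 (adjusted p = 0.965), with groups that overlapped in each.

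**Figure D2:**
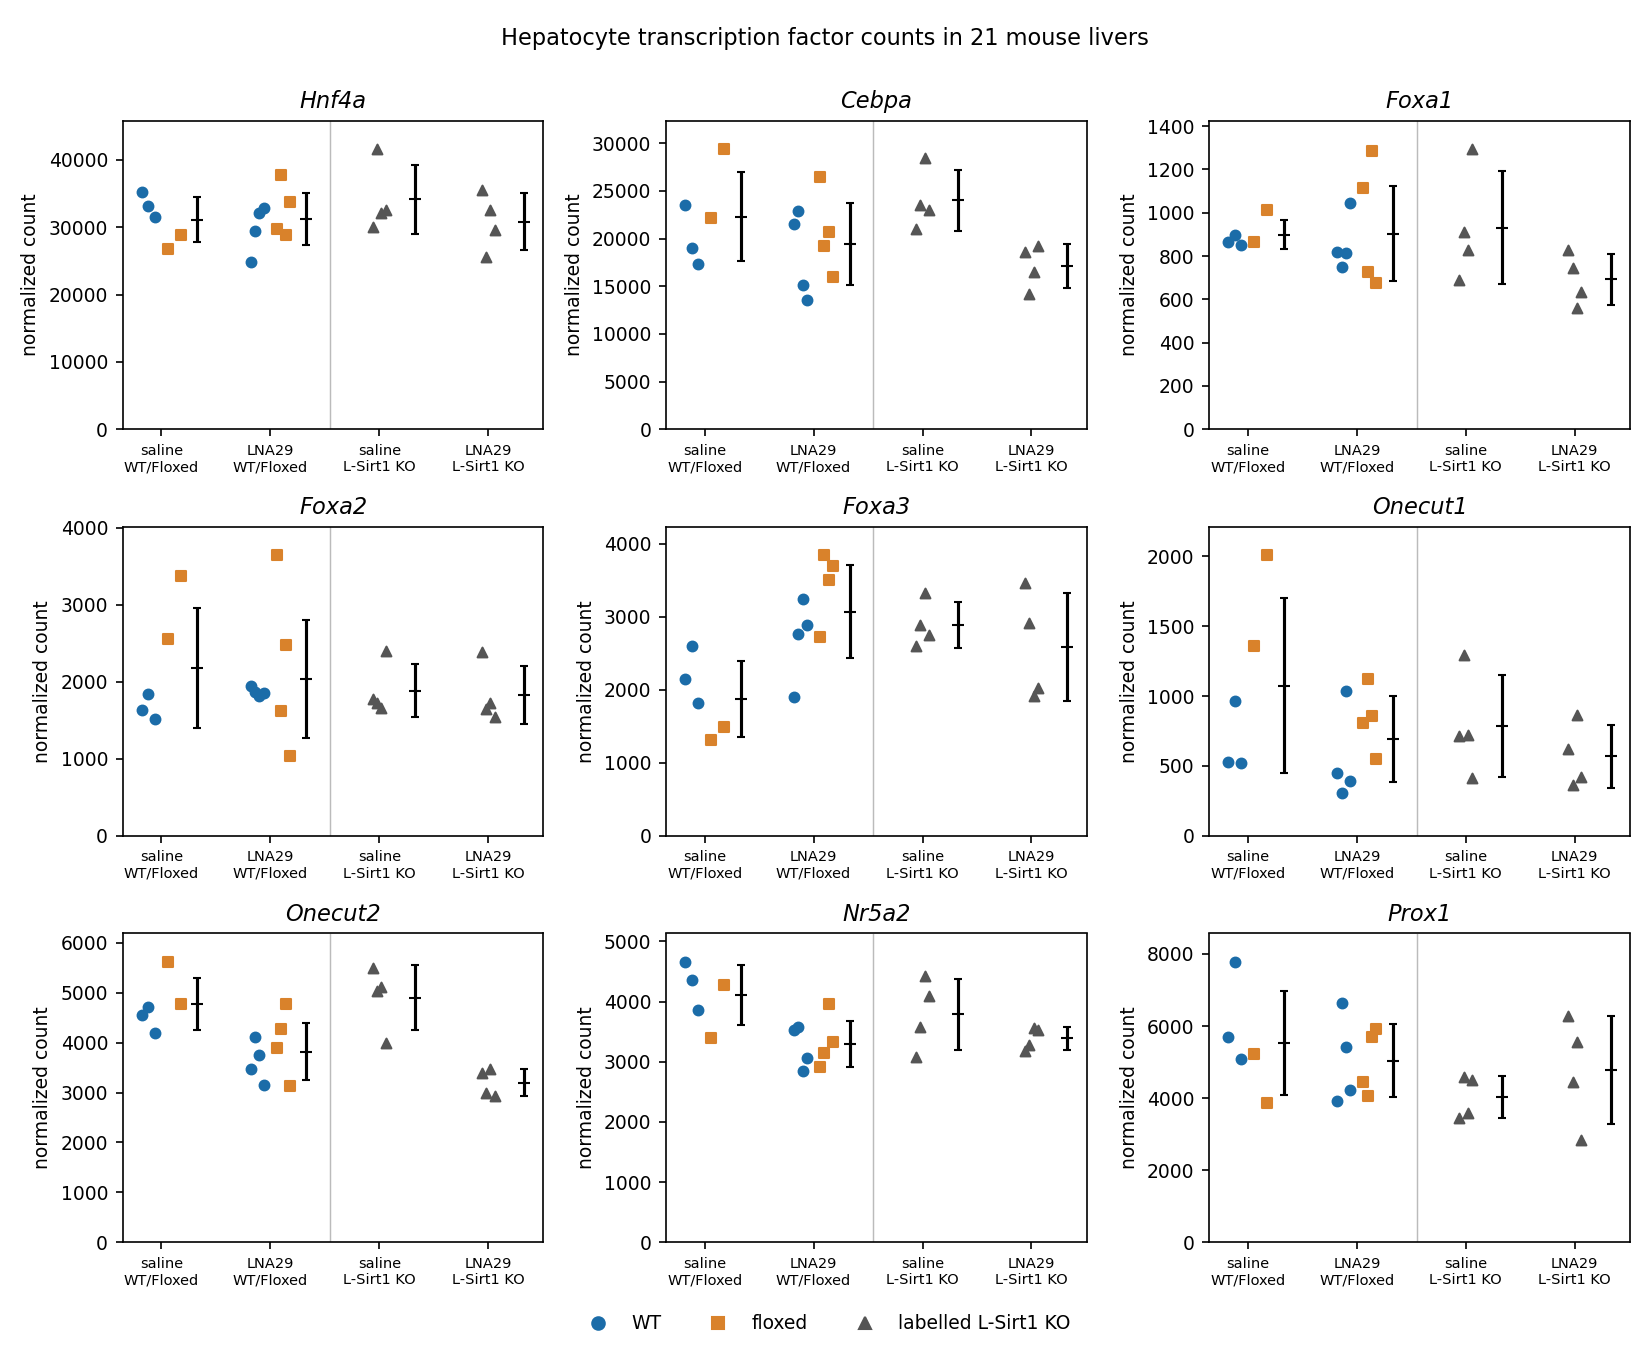
Normalized counts (vertical axis, from 0) of the 9 genes in 21 mouse livers, 1 panel per gene. Circles are WT, squares floxed and triangles mice labelled L-Sirt1 KO, and bars give the mean and SD of each group, with the 2 tables on either side of the grey line. Foxa3 of floxed mice is 1305 and 1484 with saline and 2722 to 3843 with LNA29, and Onecut2 is lower with LNA29 on both sides of the line.

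The same comparison in mice labelled L-Sirt1 KO asked whether the response needs hepatic Sirt1. Sirt1 itself had counts of 551, 567, 595 and 535 with LNA29 and 553, 607, 617 and 567.95 with saline in these libraries, within the range of the WT/Floxed libraries (492.7 to 699), so the label could not be checked from the gene count, which does not separate exons. The RT-qPCR of hepatic Sirt1 made in the study is not analysed here. Onecut2 and Cebpa fell, and no gene of the 9 rose. The 2 of 9 genes past the criteria stand beside 1.87% of the 15885 genes tested (1.19% higher and 0.68% lower), and their groups did not overlap, as was the case toward lower values for 3.3% of all genes. The median log2 fold change of the 9 genes was -0.20, and that of all genes tested was 0.00.

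Onecut2 had the larger fall. Its counts were 5493, 5030.4, 5106 and 3986 with saline and 3396, 2996, 3465 and 2925 with LNA29. Every LNA29-treated library was below every saline library. The log2 fold change was -0.61 (SE 0.11, 1.53-fold lower, limma adjusted p = 0.0756), and the exact permutation p of 0.0286 is the smallest that 4 against 4 can give. The differences within the 3 runs were -0.78, -0.54 and -0.63. The call was lost without LNA29 replicate 2 (adjusted p = 0.211) or LNA29 replicate 4 (adjusted p = 0.219).

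Cebpa had counts of 20972, 23517, 28486 and 22997 with saline and 18535, 14142, 16524 and 19236 with LNA29, again with no overlap. Its log2 fold change was -0.49 (SE 0.12, 1.40-fold lower, limma adjusted p = 0.181, exact permutation p = 0.0286). This call was close to the limit and was lost in 6 of 8 fits without 1 mouse, those without LNA29 replicates 2, 3 and 4 or saline replicates 2, 3 and 4 (adjusted p of up to 0.367) and also with the run as a covariate (adjusted p = 0.317) or with no minimum mean (adjusted p = 0.246). Foxa3, the gene that rose in WT/Floxed mice, had counts of 2594, 2882, 3328 and 2749 with saline and 3464, 2917, 1918 and 2023 with LNA29. The groups overlapped, with 2 LNA29 libraries below all saline libraries and 1 above them, and the log2 difference was -0.20 (95% interval -0.62 to 0.21, adjusted p = 0.733). The log2 differences of the other genes were -0.43 for Onecut1, -0.40 for Foxa1, -0.15 for Nr5a2, -0.15 for Hnf4a, -0.05 for Foxa2 and 0.19 for Prox1, with adjusted p-values of 0.488 and above.

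Whether the responses differed between the genotypes was tested as an interaction term in limma over 15601 genes, of which 7 (0.0449%) had an adjusted p under 0.2 and none was among the 9 genes. The response of Foxa3 in mice labelled L-Sirt1 KO minus that in WT/Floxed mice was -0.93 (SE 0.29, limma adjusted p = 0.332). With the 6 floxed mice alone as controls, which are of the same age range, it was -1.49 and passed the limit (adjusted p = 0.129), as did 0.32% of all genes. The difference for Onecut2 was -0.28 (SE 0.16, adjusted p = 0.621), so its fall was not shown to be larger in either genotype. For Cebpa it was -0.28 (SE 0.24, adjusted p = 0.768) and for Nr5a2 0.17 (SE 0.15, adjusted p = 0.794).

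Among the 4 genes used as a readout of the treatment, Col1a1, Col3a1, Eln and Sparc, which are matrix genes and known miR-29 targets, all 4 rose in both mouse comparisons. Eln rose 3.595-fold in the WT/Floxed table (adjusted p = 4.66e-05) and 3.32-fold in the L-Sirt1 KO table (adjusted p = 0.00783), larger changes than any of the 9 transcription factors showed. Of 23 other liver-enriched transcription factors, 22 were tested, and none passed the criteria in WT/Floxed mice (1 had an unadjusted p under 0.05), with a median log2 fold change of 0.01. Among mice labelled L-Sirt1 KO their median was -0.14 and 1 of 22 fell, Atf5, with counts of 15832 to 20711 against 19402 to 35731 (log2 fold change -0.69, adjusted p = 0.1999). Of 20 tested genes for products known to depend on these factors, 2 rose and 2 fell in WT/Floxed mice, with a median of 0.04. Apoa1, the apolipoprotein of HDL, rose 1.43-fold (adjusted p = 0.0312) and Abcg5, a sterol exporter, rose 1.37-fold (adjusted p = 0.1499). Tat, of tyrosine breakdown, had a log2 fold change of -0.48 (adjusted p = 0.0993) and Otc, of the urea cycle, of -0.29 (adjusted p = 0.132). With the L-Sirt1 KO label the median was 0.06 and 1 of 20 passed. This was G6pc, the last enzyme of glucose release, which rose 1.68-fold (limma adjusted p = 0.0538). In WT/Floxed mice G6pc had counts of 7526 to 56670 with LNA29 and 9199 to 35463 with saline, with a log2 difference of 0.86 that did not pass (adjusted p = 0.413).

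These are bulk samples, in which fewer cells of a type and less RNA per cell cannot be told apart. The hepatocyte markers matched the tissue, with a summed level of 4907780 to 8726480 normalized counts over 7 of 8 markers in the WT/Floxed table, most of it Alb. The sum was 6873960 to 8726480 with LNA29 and 4907780 to 7881320 with saline in that table, and 6939040 to 7951270 with LNA29 and 5553720 to 6939470 with saline in the L-Sirt1 KO table, where the groups overlapped by a single pair of nearly equal libraries and Onecut2 and Cebpa were lower. Of these 7, Ahsg rose in both comparisons (1.90-fold and 1.78-fold) and Apoa1 in WT/Floxed mice. Among markers of other cells, none of the 7 tested bile duct markers passed in either mouse comparison, although in WT/Floxed mice LNA29 had the higher mean for all 7 (median log2 difference 0.28), and the sum of the 8 bile duct markers, led by Spp1, was 2909 to 4178 in saline-treated and 3448 to 6470 in LNA29-treated WT/Floxed libraries. Of the 8 Kupffer cell markers, 2 passed as lower in the L-Sirt1 KO table, where the median of the list was -0.34, namely Vsig4 (log2 fold change -0.54, adjusted p = 0.0891) and Clec4f (-0.29, adjusted p = 0.1895), and their summed level was 14792 to 18422 with LNA29 and 18598 to 22095 with saline. In the same mice Onecut2 and Cebpa were lower. In WT/Floxed mice the Kupffer sum was 8431 to 44016 with LNA29 and 15413 to 26133 with saline, and none of the 8 passed (median -0.43). Lyve1, of sinusoidal and lymphatic endothelium, where Prox1 is also expressed, fell in both comparisons (log2 fold change -0.51 and -1.17) as 1 of 8 markers of that list. All 4 tested pancreatic markers were lower with LNA29 in WT/Floxed mice (median -1.52) and none passed. The sum of the list of 8 was 504 to 1199.9 with LNA29 and 739 to 1658 with saline. It was highest in the WT saline replicates 3 and 4. Most of it was Cela1, at 503 to 1199.9 with LNA29 and 720 to 1042 with saline. The sum is therefore not read as a measure of pancreatic RNA. The part of these cell types in the changes of Onecut2, Cebpa, Foxa3 and Nr5a2 was not tested.

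The 7 WT and 6 floxed mice also differed from each other, a comparison looked at after the values had been seen. Fitted beside the treatment, Onecut1 was the only 1 of the 9 genes past the criteria, where 14.7% of all genes passed, 7.26% higher and 7.48% lower. A call for 1 of 9 genes is not above that share. Onecut1 was higher in floxed than in WT mice by 0.97 on the log2 scale (SE 0.28, 1.96-fold, limma adjusted p = 0.0543). Its counts averaged 1117 ± 518 (SD, n = 6) in floxed and 599 ± 285 (SD, n = 7) in WT mice, and the groups overlapped. The acinar gene Pnlip was listed at 0 in all 6 floxed mice and ranged from 1.19 to 248 in the 7 WT mice, with a median of 15.1. The WT mean of 58.1 rested largely on saline replicate 4 and was 26.5 without it. Pnlip was 1 of 4 tested pancreatic markers, of which none passed all criteria. The means of Pnlip, Cpa1 and Ctrb1 were below 50. In floxed minus WT mice the log2 difference was -3.46 for Cpa1 (limma adjusted p = 0.0428) and -3.73 for Ctrb1 (limma adjusted p = 0.0359). Both were past the limits on p and failed on the mean. The median of the list was -3.60. Cela1, the most abundant, had a log2 difference of -0.27 (limma adjusted p = 0.367). Onecut1, Nr5a2 and Foxa2 are also expressed in pancreas, and the part of pancreatic RNA in their counts was not tested.

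The genes did not move as 1 block. Over the 21 mouse libraries, with log2 values centred on each table's mean, the Pearson correlations of the 36 pairs had a median of 0.13 and ran from -0.28 to 0.64. The closest pair was Onecut2 and Cebpa (r = 0.64), followed by Foxa1 and Foxa2 (0.63), Onecut1 and Onecut2 (0.59) and Foxa2 and Cebpa (0.53), and 12 pairs were negative. Among 12759 genes with a mean of at least 50, those most like Onecut2 were Lgals1 (r = 0.81), Fitm1 (0.81) and Dvl1 (0.81). Those most like Hnf4a were Dhx38 (r = 0.86), Nploc4 (0.84) and Xpnpep3 (0.84). These libraries share treatment, background and run, and the best of so many genes is high by selection, so the values are descriptive.

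**Figure D3:**
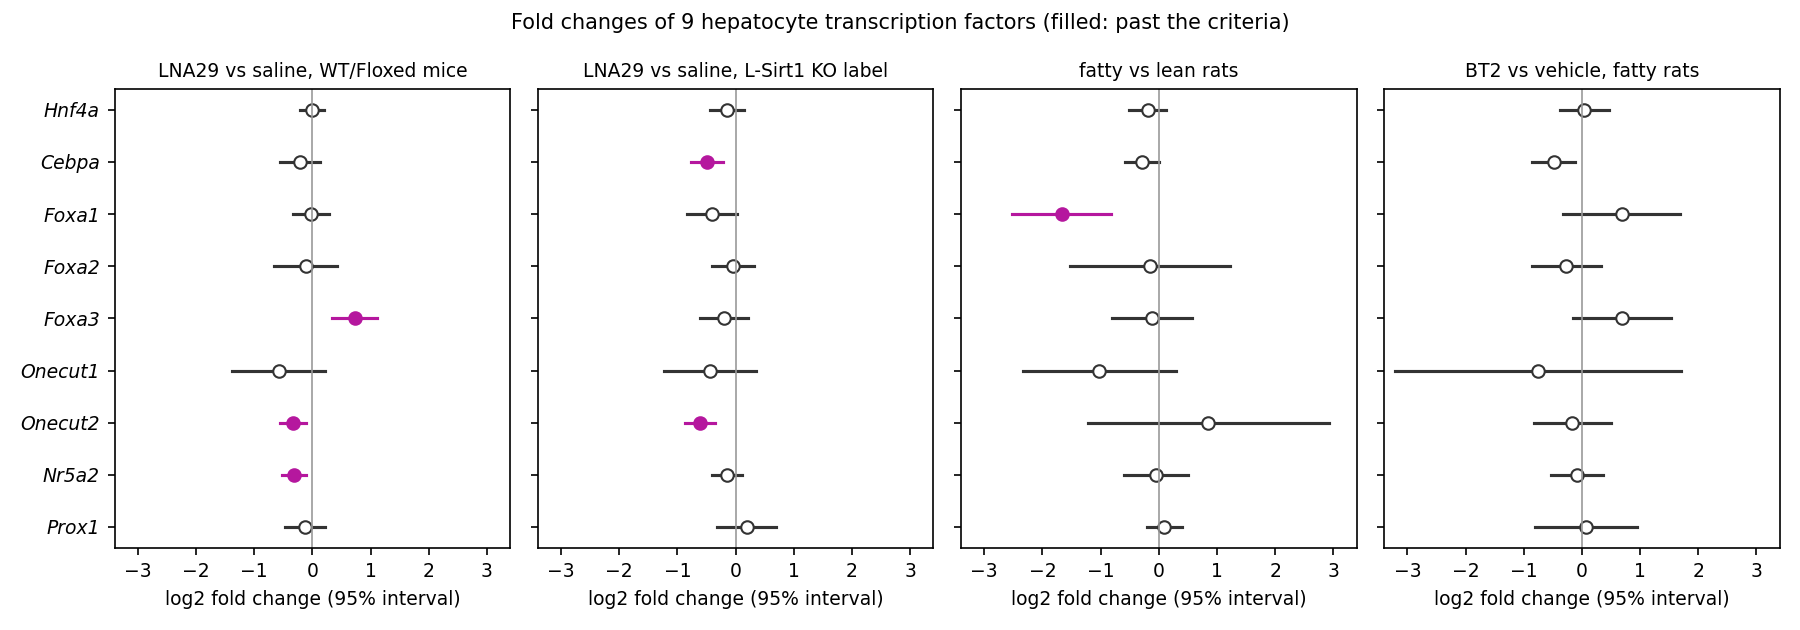
Log2 fold changes (horizontal axis, with 95% intervals) of the 9 genes in the 4 comparisons. Filled points passed the criteria of that comparison. Foxa3 is at 0.73 in WT/Floxed mice and at -0.20 with the L-Sirt1 KO label, Onecut2 is negative in both, and the intervals of the rats are wide for Onecut1, Onecut2 and Foxa2.

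The rat comparisons rest on libraries of very unequal depth. In the table of lean and fatty rats the estimated depth (M, megareads) was 56.4, 46.1, 0.188 and 0.189 M reads in lean rats and 58.5, 1.56, 0.952 and 1.24 M in fatty rats. In the BT2 table it was 3.24, 8.96, 2.13 and 0.193 M with vehicle and 0.57, 1.52, 1.53 and 0.383 M with BT2. In the 2 shallow lean libraries 1 read was worth more than 10 normalized counts, so the scarcer factors rest on a handful of reads there.

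Comparing fatty with lean rats, Foxa1 was lower in fatty rats. This 1 of 9 genes stands beside 4.25% of the 8633 genes tested with an adjusted p under 0.05 (1.8% higher and 2.46% lower), and groups without overlap toward lower values were found for 6.68% of all genes. The median log2 fold change of the 9 genes was -0.15, and that of all genes tested was 0.07. Foxa1 had normalized counts of 39.2, 78.6, 52.7 and 136 in lean rats, from an estimated 1024, 1821, 5 and 13 reads. In fatty rats they were 27.8, 21.2, 23 and 14, from 864, 18, 11 and 9 reads. All 4 fatty rats were below all 4 lean rats, and the log2 fold change was -1.67 (SE 0.38, 3.18-fold lower, limma adjusted p = 0.0375, exact permutation p = 0.0286, the smallest possible). Within the 2 runs the difference was -1.16 and -2.18. Without the 2 lean libraries under 0.25 M reads it was -1.37 (adjusted p = 0.047), and with precision weights from the reads it was -1.04 (adjusted p = 0.0352). The call was lost with the run as a covariate (adjusted p = 0.0597), with no minimum mean (adjusted p = 0.1098) and in 5 of 8 fits without 1 rat, those without lean replicate 2 or any fatty rat (adjusted p of up to 0.108).

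Cebpa had counts of 1001, 855, 1327 and 1086 in lean and 879, 779, 909 and 893 in fatty rats, with overlap and a log2 difference of -0.29 (adjusted p = 0.315). Hnf4a had 1145, 1209, 899 and 798 in lean and 931, 856, 792 and 926 in fatty rats, a difference of -0.19 (95% interval -0.50 to 0.12, adjusted p = 0.521). The value of Foxa2 depended on which libraries entered. Its counts were 73.1, 83.2, 10.5 and 115 in lean rats, of which the third is a single read, and 46.2, 51.8, 52.2 and 40.4 in fatty rats. The log2 fold change was -0.15 over all libraries (adjusted p = 0.914), -0.71 without the 2 shallow lean libraries (adjusted p = 0.0416) and -0.71 with precision weights from the reads (adjusted p = 0.00564). Foxa2 also passed in 1 of the 8 fits without 1 rat. With precision weights Hnf4a (-0.35, adjusted p = 0.0307) and Nr5a2 (-0.49, adjusted p = 0.00445) also passed, so that 4 of the 9 genes were called, where 1986 of all genes were.

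Onecut1 had counts of 14.8, 92.7, 105 and 115 in lean and 45.2, 27.1, 35.5 and 21.8 in fatty rats, a log2 difference of -1.02 (95% interval -2.34 to 0.29, adjusted p = 0.427) that depended on the setting. It was -1.70 and passed without lean replicate 1 (adjusted p = 0.0101), in 1 of the 8 fits without 1 rat, but it was 0.16 with precision weights (adjusted p = 0.8996), and within the 2 runs it was -0.097 and -1.94, so no direction is read from it. The first lean library had the lowest normalized count, from 387 reads, so the lowest and the highest normalized counts were both in lean rats. Onecut2 was scarce, with 19.9, 20, 10.5 and 0 in lean rats, of which the last was listed at 0 and allows up to 31.3 normalized counts (3 reads), and 14, 11.8, 14.6 and 17.1 in fatty rats. Its direction, 0.86 over all libraries (adjusted p = 0.658), was -0.46 without the shallow libraries, so no direction is read from it. Nr5a2 (-0.05), Foxa3 (-0.11) and Prox1 (0.10) differed by less than the spread between rats in the fit of all libraries.

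**Figure D4:**
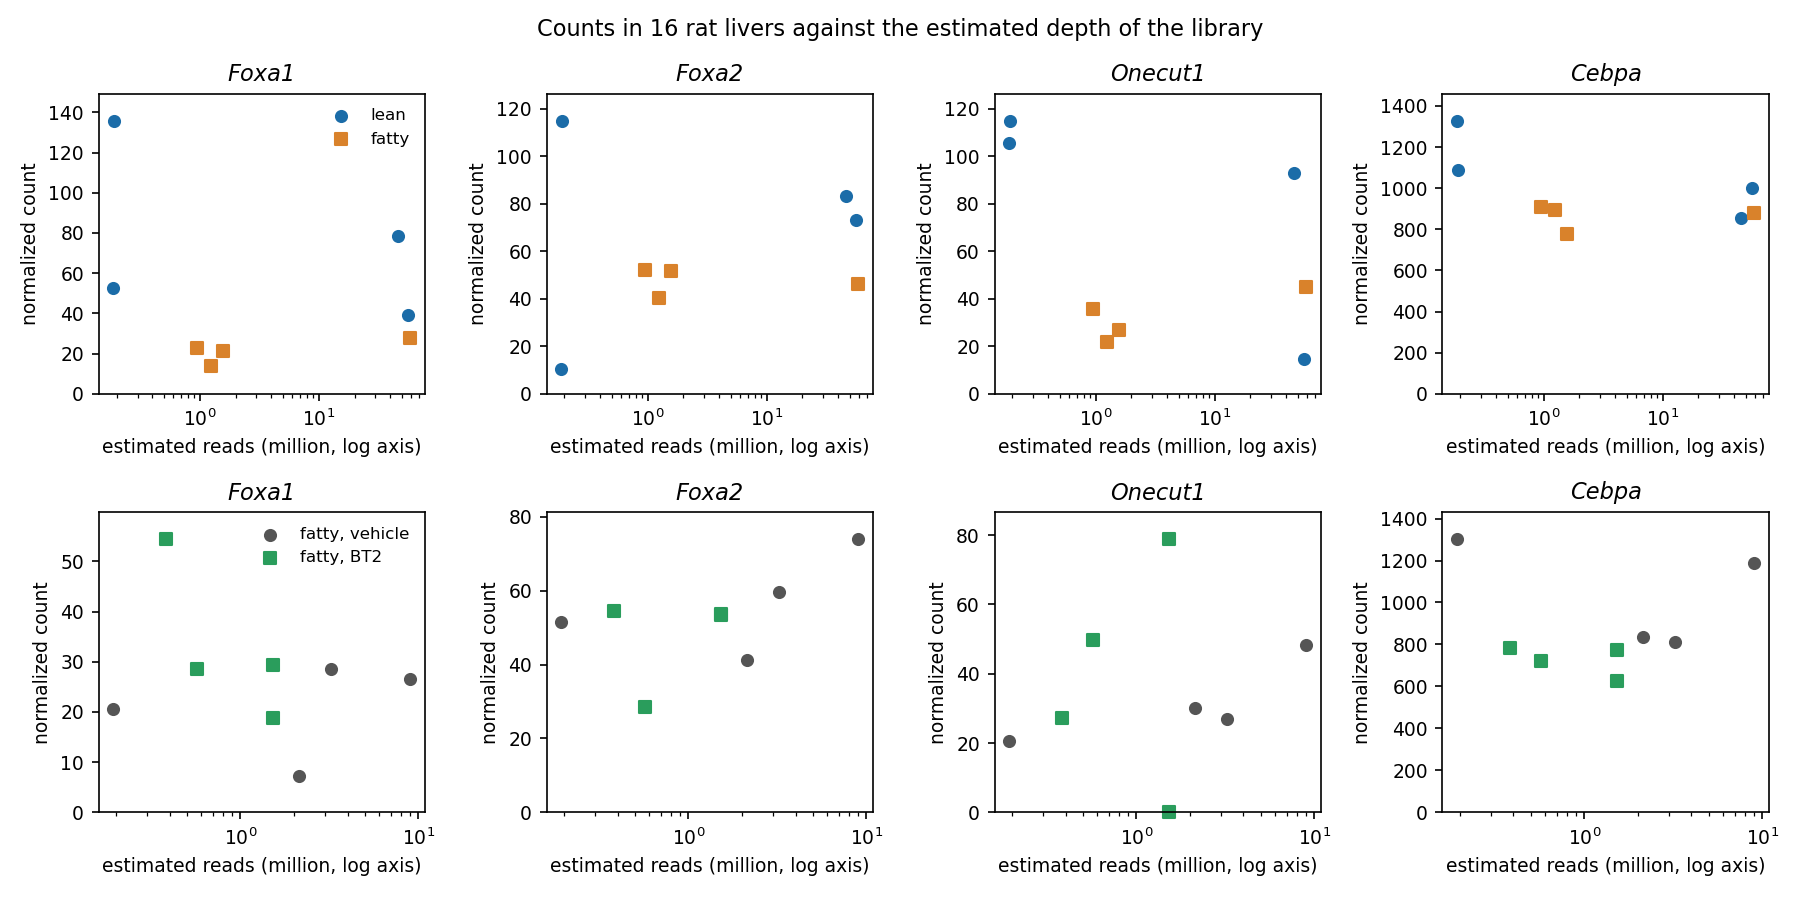
Normalized counts (vertical axis, from 0) of Foxa1, Foxa2, Onecut1 and Cebpa against the estimated reads of the library (horizontal log axis) in 16 rats, with lean and fatty rats above and vehicle- and BT2-treated fatty rats below. Each point is 1 library. All 4 fatty rats lie below the lean rats for Foxa1, and the 2 lean libraries near 0.19 M reads hold both the lowest and the highest Foxa2 value.

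Of the 21 tested other liver-enriched transcription factors, 2 fell in fatty rats, both without overlap, and the median of the list was -0.29. Hhex, a homeobox factor of liver development, had counts of 81.2 to 128 in fatty and 241 to 697 in lean rats (log2 fold change -2.04, SE 0.33, adjusted p = 0.00761). Nr1i3, the nuclear receptor CAR, had 6.76 to 14.4 against 19.1 to 48.3 (log2 fold change -1.63, adjusted p = 0.0465). Of 20 tested target products 3 rose and 3 fell, with a median of -0.18. Pklr, the liver pyruvate kinase, rose 2.21-fold (adjusted p = 0.00692), Cyp7a1, the first enzyme of bile acid synthesis and a known target of Nr5a2 and Hnf4a, rose 2.53-fold (adjusted p = 0.00777) and Tf, transferrin, rose 1.36-fold (adjusted p = 0.0192). Cps1 (-0.58 on the log2 scale), Ttr (-0.43) and Apob (-0.39) fell with adjusted p-values of 0.0212 to 0.0483. The matrix genes Col1a1, Col3a1 and Sparc were higher in fatty rats (Col3a1 2.94-fold, adjusted p = 0.000884), as was Stab2 of sinusoidal endothelium (2.23-fold, adjusted p = 0.033), while none of the 5 tested stellate cell, 8 Kupffer cell and 3 bile duct markers passed. Cela1, at 4.18 to 5.5 in fatty and 14.8 to 41.8 in lean rats, was the 1 gene of the pancreatic list tested. It was lower in fatty rats (limma adjusted p = 0.0279). In floxed mice Cela1 averaged 766 while Pnlip was listed at 0, so Cela1 is not read as a measure of pancreatic RNA. Of the 8 hepatocyte markers, Hp and Tf were higher and Ahsg, Fgb, Ttr and Cps1 lower, and their sum was 302098 to 384388 in fatty and 319718 to 378234 in lean rats. The part of these cell types in the fall of Foxa1 was not tested.

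Comparing BT2 with vehicle in fatty rats, none of the 9 genes passed, and 0 of the 8405 genes tested had an adjusted p under 0.05 in limma (percent called 0), while 332 (3.95%) had an unadjusted p under 0.05. The median log2 fold change was -0.09 for the 9 genes and 0.01 for all genes tested. Cebpa was the 1 of 9 genes whose groups did not overlap, which toward lower values was so for 1.44% of all genes. Its counts were 812, 1187, 837 and 1301 with vehicle and 722, 772, 625.3 and 783 with BT2, each lower than every vehicle value. The log2 difference was -0.49 (SE 0.17, limma p = 0.0154, adjusted p = 0.898), with -0.39 and -0.58 within the 2 runs, and the exact permutation p was 0.0286, the smallest possible. After adjustment over all genes it was not past the limit.

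The other genes overlapped between BT2 and vehicle. Foxa3 had 45.1, 87.3, 66.9 and 31 with vehicle and 142, 72.1, 112 and 48.9 with BT2, a log2 difference of 0.69 (95% interval -0.15 to 1.53, adjusted p = 0.898). Foxa1 had 28.6, 26.6, 7.33 and 20.6 with vehicle and 28.5, 29.4, 18.7 and 54.4 with BT2, a difference of 0.68 (95% interval -0.33 to 1.69, adjusted p = 0.898). Onecut1 was listed at 0 in 1 BT2 library of 1.53 M reads and at 49.8, 78.8 and 27.2 in the others, against 26.8, 48.4, 30.3 and 20.6 with vehicle, and its interval of -3.21 to 1.70 allows no reading. Onecut2 lay between 14.2 and 20.6 in all 8 libraries, from 2 to 89 reads, with a difference of -0.16 (95% interval -0.83 to 0.50). For Hnf4a the difference was 0.04 (95% interval -0.38 to 0.47), for Nr5a2 -0.09 (-0.54 to 0.36), for Foxa2 -0.27 (-0.86 to 0.33) and for Prox1 0.07 (-0.80 to 0.94). None of 21 other liver-enriched transcription factors (median 0.07) and none of 19 target products (median 0.02) passed.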

How the data were processed

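Per the study's methods, the authors aligned reads with STAR to mm10 or rn6, quantified genes with Salmon and normalized each table with DESeq2. The deposited unit is therefore a signal, a normalized gene count, and tests stayed within a table apart from the interaction term. The authors left out 1 floxed saline-treated mouse as an outlier. Whole reads came out for only 75.9% to 92.3% of low values, so no count model was run. Depth, estimated from the value of 1 read, was 42.6 to 77.96 M reads (M, megareads) in mice and 0.188 to 58.5 M in rats. Such read numbers speak to counting error only. All 37 columns were matched to samples.

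limma 3.58.1 (R 4.3.3) was fitted on log2(normalized count + 1), a scale that understates changes of low genes, for genes with a mean of at least 10, with Benjamini-Hochberg adjustment over all genes tested. Mouse calls needed p under 0.05, adjusted p under 0.2, a mean above 50 and a fold above 1.2, and rat calls an adjusted p under 0.05. Exact permutation tests were two-sided and enumerated all splits. The fits were tested on simulated data. Other settings were another pseudocount (10), all genes without a minimum mean, TMM scaling, sample quality weights, precision weights (rats), the run, background or replicate number as covariates, other limits on the adjusted p and each library left out. After the data had been seen, fits of WT or floxed mice alone, of rats without libraries under 0.25 M reads and of the difference between WT and floxed responses were added. Named are the 9 genes, Sirt1, the called genes of each list (at most 5) and the 3 most alike genes. Named beside these, after their values were seen, are Pnlip, Cpa1 and Ctrb1, the most abundant marker of a list and the called hepatocyte markers of fatty rats beyond 5. The genes and lists were chosen with earlier results of these data known.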

Additional observations from a re-analysis of the deposited data

Results flagged for a closer look

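Among the 72 sets of values that the 9 genes make with 8 groups, 3 held a library far from the others by Dixon's test, where chance alone gives about 1 in 20. Onecut1 was 14.8 in lean replicate 1 and 92.7 to 115 in the other lean rats. Foxa2 was 28.5 in BT2 replicate 1, from 8 reads, and 53.4 to 54.4 in the other 3 BT2 rats. Onecut2 was 15.8 in vehicle replicate 1, from 26 reads, and 19.9 to 20.6 in the other vehicle rats, of which the shallowest gave 2 reads.

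The response of Foxa3 to LNA29 in mice labelled L-Sirt1 KO minus that in floxed mice was -1.49 on the log2 scale (limma interaction term, adjusted p = 0.129). This value rests on only 2 saline-treated floxed mice, with counts of 1305 and 1484, against 2722 to 3843 with LNA29 (n = 4). The groups labelled L-Sirt1 KO overlapped. With all WT/Floxed mice as controls the difference was -0.93 and did not pass (adjusted p = 0.332).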

How the results depend on the processing

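Of 648 values of the 9 genes under other settings, 543 kept their direction and their side of the threshold, 46 kept the direction but lost the call, 10 gained a call and 49 changed sign. Median shifts under TMM scaling were below 0.02. No library lay under 10% of its table's median depth, so that exclusion was not run. Causes were not tested. In WT/Floxed mice the number of genes called (688) was 396 with no minimum mean, 1308 with sample quality weights, 206 at an adjusted p of 0.05 and 88 in WT mice only, and the number among the 9 genes (3) was 1, 3, 0 and 0. For mice labelled L-Sirt1 KO the 297 genes became 160 with no minimum mean, 804 with quality weights, 103 with the run and 37 at an adjusted p of 0.05, and the 2 of 9 became 1, 2, 1 and 0. In fatty against lean rats the 367 genes became 241 with no minimum mean, 1169 with quality weights, 1986 with precision weights and 945 at an adjusted p of 0.2. Of the 9 genes, 0 were called with no minimum mean or with the run, 4 with quality or precision weights and 2 without libraries under 0.25 M reads, where 506 of all genes were. With BT2, 1 gene was called with a pseudocount of 10, with quality weights or at an adjusted p of 0.2, and none of the 9. The genotype difference passed for 50 genes, in place of 7, with floxed controls.

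Leaving out 1 library gave 381 to 1006 genes and 1 to 3 of the 9 in WT/Floxed mice, 77 to 426 and 0 to 2 in mice labelled L-Sirt1 KO, 225 to 379 and 0 to 2 in fatty against lean rats, and 0 to 2 genes with BT2. The log2 difference then ran from -0.053 to 0.047 for Hnf4a, -0.10 to 0.030 for Foxa1, -0.79 to -0.30 for Onecut1, -0.25 to 0.058 for Foxa2 and -0.24 to 0.013 for Prox1 in WT/Floxed mice. For Cebpa of WT/Floxed mice it ran from -0.29 to -0.10. In mice labelled L-Sirt1 KO it ran from -0.18 to 0.071 for Foxa2, 0.043 to 0.43 for Prox1 and -0.36 to -0.073 for Foxa3. In the same mice it ran from -0.22 to -0.045 for Hnf4a, -0.70 to -0.16 for Onecut1, -0.53 to -0.23 for Foxa1 and -0.25 to -0.072 for Nr5a2. In fatty rats it ran from -0.89 to 0.22 for Foxa2 and -1.70 to -0.75 for Onecut1, each called in 1 of 8 fits. There it also ran from -0.24 to 0.14 for Foxa3, -0.27 to 0.12 for Nr5a2 and -0.17 to 1.29 for Onecut2. With BT2 it ran from -0.079 to 0.19 for Hnf4a, -0.19 to 0.070 for Nr5a2, -1.46 to 0.64 for Onecut1, 0.27 to 0.91 for Foxa1 and -0.20 to 0.37 for Prox1.

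Other changes of sign in WT/Floxed mice were Hnf4a at -0.023 with quality weights, -0.012 with the run and -0.17 in WT mice, Foxa1 at 0.0088 with quality weights, Foxa2 at 0.18 in WT mice and Prox1 at 0.15 in floxed mice. In fatty rats Foxa3 was 0.19 with quality weights, 0.17 with precision weights and 0.17 without the shallow libraries, Onecut2 was -0.34, -0.46 and -0.46, and Onecut1 was 0.16 with precision weights. With BT2 Nr5a2 was 0.032 with quality weights, Prox1 -0.14 with precision weights and -0.16 without the shallow libraries, and Hnf4a -0.049 without them.

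The samples were treated as unpaired. Deviations of same-numbered libraries correlated at -0.28 to 0.24 in WT/Floxed mice (5 pairs) and -0.082 to 0.19 in mice labelled L-Sirt1 KO. They correlated at -0.03 to 0.03 in lean and fatty rats and -0.02 to 0.15 in the BT2 table. Libraries of different numbers were not compared, so these values cannot decide whether the numbers pair the samples. With the replicate number as a block, 56, 145, 221 and 0 genes were called in these comparisons, among them 0, 1, 0 and 0 of the 9, and Hnf4a was -0.022 in WT/Floxed mice.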
